A study of Danio rerio with 8 samples.

Results

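Melanophores are the black pigment cells of zebrafish, and the genes described here are those that specify them and build their pigment. The set was a list of 10 genes, chosen by their fold changes between these same libraries and by their known roles, and matched by symbol: the transcription factor mitfa, the receptor kita, the melanin enzymes tyr, tyrp1a, tyrp1b and dct, the melanosome matrix proteins pmela and pmelb, and the melanosome transporters oca2 and slc45a2. Of these, 8 have a row among the 14781 gene rows of the count table, and tyrp1a and oca2 were not analysed here. The libraries were made from sorted tumour cells of transgenic zebrafish. In the MYCN group, 4 libraries came from EGFP-positive neuroblastoma cells of MYCN transgenic fish. In the myrAKT group, 4 libraries came from mCherry-positive ganglioneuroma cells of fish transgenic for myristoylated AKT, a kinase held at the cell membrane by its lipid tag. Genotype, tumour type and fluorescent protein went together in every sample. Strain, age, pigment background, transgene promoter and the number of fish per sample are not in the labels, so the spread between libraries may be partly technical. The transgenes have no row of their own and were not analysed here.

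Melanophores arise from the neural crest, the embryonic cell population that also gives rise to the sympathetic neurons and chromaffin cells from which neuroblastoma and ganglioneuroma form. Mitfa is the master regulator of this pigment lineage: fish that lack it have no melanophores in the body, and its protein binds the promoters of melanin enzymes such as tyr and dct. Tyr starts melanin synthesis, dct and the tyrp1 proteins carry it on, the pmel proteins form the fibrils on which melanin is laid down, slc45a2 acts in the melanosome membrane, and kita is needed for melanophore migration and survival.

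Read counts summed to between 25948623 and 55827123 per library. Of 12126 genes tested, 9220 passed the test between the groups, which is 76.0% (edgeR quasi-likelihood test, adjusted p under 0.05). Levels are given in CPM, the read count scaled to library size with TMM factors. They are not divided by gene length, so levels are compared between libraries. Shares of reads within a library, and the choice of genes with the most reads in a list, depend on gene length too and are no comparison of transcript numbers. The sympathetic markers dbh and th were high in all 8 libraries, at 3349 ± 304 CPM in MYCN and 1248 ± 377 CPM in myrAKT (SD, n = 4) for dbh, the enzyme that makes noradrenaline. MYCN 4 had the lowest mitfa level of the MYCN libraries, and the mitfa difference is also given without it. Other MYCN means and ranges include it. The pigment genes were listed with earlier results of this comparison known, so their own differences are described and not tested.

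Mitfa and pmela were high in the MYCN libraries and low in the myrAKT libraries. Mitfa was at 241, 185, 152 and 60.8 CPM in MYCN 1 to 4 and at 1.95, 1.85, 2.76 and 2.50 CPM in myrAKT 1 to 4. The groups did not overlap, and MYCN 4 was the lowest MYCN library. The means were 160 ± 75.4 CPM in MYCN and 2.27 ± 0.438 CPM in myrAKT (SD, n = 4), a log2 fold change of -6.14 ± 0.44 (SE), which is 70.7-fold lower in myrAKT. Without MYCN 4 it was -6.42 ± 0.22. When each library was scaled to its dbh and th reads in place of TMM factors, the log2 fold change was -4.73, a smaller difference in the same direction. In bulk libraries like these, fewer cells of a type and less RNA per cell cannot be told apart.

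Pmela, the fibril protein whose loss lightens melanophores in the fdv mutant, had the same direction with less spread. It was at 228, 250, 213 and 202 CPM in MYCN 1 to 4 and at 2.54, 2.19, 2.90 and 2.41 CPM in myrAKT 1 to 4. The 4 MYCN libraries lay within 1.24-fold of each other, where those of mitfa spanned 3.96-fold. The log2 fold change of pmela was -6.47 ± 0.16 (SE), 88.9-fold lower in myrAKT, and -5.02 under the scaling on dbh and th. With TMM factors both lay below a log2 fold change of -6, as did 0.503% of the 12126 genes tested. Counting the gene itself, 41 genes were at least as low as pmela and 53 at least as low as mitfa; at or below -4 lay 2.09%.

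**Figure D1:**
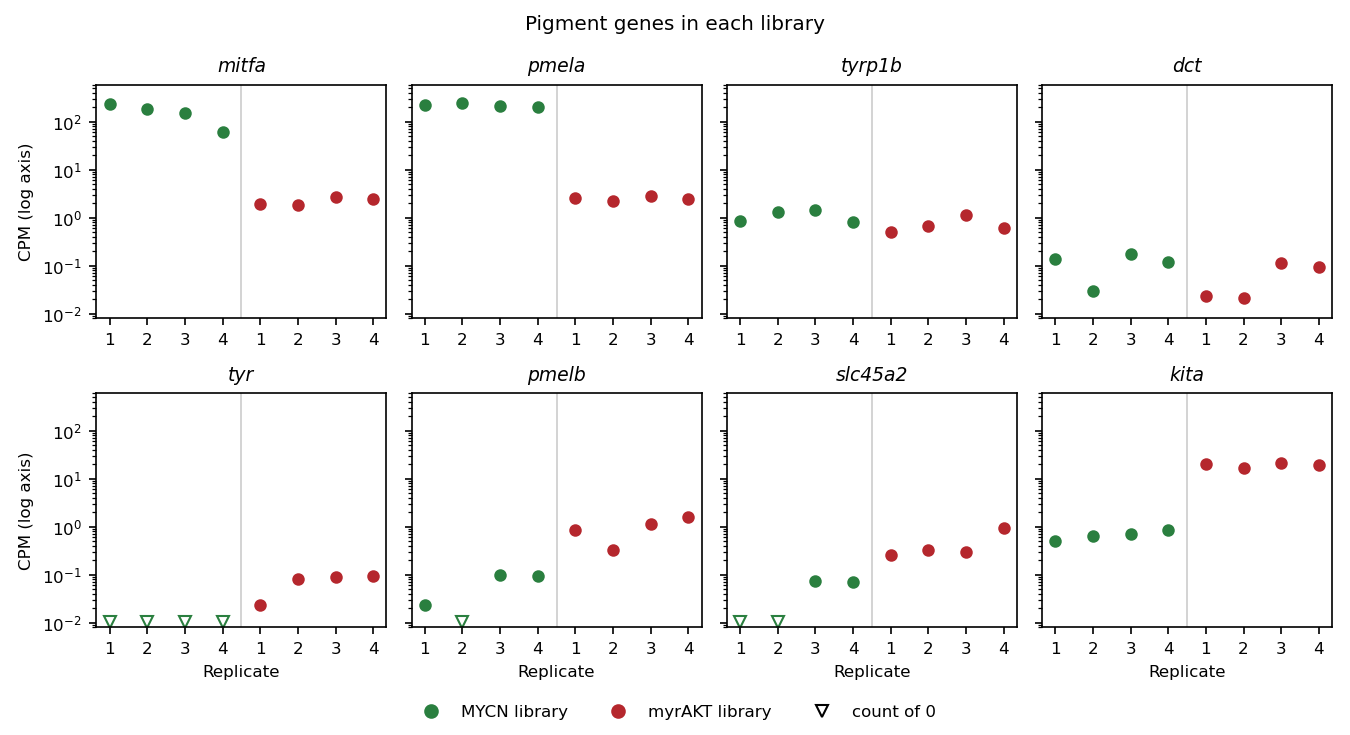
Level of each of the 8 pigment genes in each library, in TMM-scaled CPM on a log axis that all panels share; points are single libraries by replicate number, green for MYCN and red for myrAKT, and open triangles mark a count of 0. Mitfa lies between 60.8 and 241 CPM in MYCN and between 1.85 and 2.76 CPM in myrAKT, kita lies the other way round, and the groups overlap for tyrp1b and dct.

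Tyr and dct were at or near 0 in both groups, and tyrp1b was low and overlapped between them. Tyr, which carries out the rate-limiting step, had a count of 0 in all 4 MYCN libraries and counts of 1, 4, 4 and 3 in myrAKT 1 to 4. A count of 0 in the MYCN libraries together allows up to 0.0190 CPM, taking 3 counts over the group. The pooled tyr level in myrAKT, with its 12 reads taken as counted, was 3.79-fold this floor. Floors of this kind cover only counting error, and only in the group with no read. The libraries in which mitfa was highest thus held no tyr read.

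Dct, the dopachrome tautomerase, had counts of 6, 1, 7 and 5 in MYCN 1 to 4 and of 1, 1, 5 and 3 in myrAKT 1 to 4. Its groups overlapped, at 0.116 ± 0.0613 CPM in MYCN and 0.0629 ± 0.0476 CPM in myrAKT (SD, n = 4). Neither tyr nor dct reached the count needed for the test across genes. Tyrp1b, which acts beside them in melanin synthesis, was at 0.872, 1.34, 1.43 and 0.816 CPM in MYCN 1 to 4 and at 0.516, 0.687, 1.15 and 0.602 CPM in myrAKT 1 to 4. These groups overlapped too, with a log2 fold change of -0.57 ± 0.33 (SE). The sign turned, to 0.84, when dbh and th were used to scale the libraries.

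Pmelb and slc45a2 were higher in myrAKT, from counts near 0 in MYCN. Pmelb, the paralog of pmela, had counts of 1, 0, 4 and 4 in MYCN 1 to 4 and of 37, 16, 51 and 50 in myrAKT 1 to 4. The pair of pmel genes therefore lay in opposite directions, with pmelb at a log2 fold change of 3.99 ± 0.68 (SE). How reads shared by paralogs were counted is not given in the sources used here, so the split of reads between pmela and pmelb is uncertain. The MYCN libraries together held 35110 pmela reads and 9 pmelb reads, and the myrAKT libraries 418 and 154. Slc45a2, the gene altered in the albino fish, had counts of 0, 0, 3 and 3 in MYCN 1 to 4 and of 11, 16, 13 and 30 in myrAKT 1 to 4. Its log2 fold change was 3.40 ± 0.80 (SE), and 2.87 ± 0.75 without myrAKT 4, the library with the highest slc45a2 level. With counts of 0 on the MYCN side, these fitted values depend on the prior count of the fit.

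Kita was higher in myrAKT, with steady values in each group. It was at 0.495, 0.627, 0.715 and 0.840 CPM in MYCN 1 to 4 and at 20.5, 17.1, 21.6 and 19.2 CPM in myrAKT 1 to 4. Every myrAKT library lay above every MYCN library, at a log2 fold change of 4.86 ± 0.20 (SE), 29.1-fold. Of all genes tested, 8.14% lay at a log2 fold change of 4 or above. In mammals the KIT receptor is also carried by mast cells and blood progenitors. Of 8 tested mast cell genes 6 rose and 2 fell, against 37.6% and 38.4% of all genes tested. Cpa5, a carboxypeptidase used as a mast cell marker in zebrafish, rose from 5.94 ± 1.67 to 656 ± 32.5 CPM (SD, n = 4). Hdc, named after its values were seen, and gata2a fell by 1.02 and 1.69 on the log2 scale. Neither fall held under the scaling on dbh and th, at 0.40 and -0.32. Markers of blood progenitors were not listed. The summed level of 9 mast cell genes was between 504 and 644 CPM in MYCN and between 2253 and 2614 CPM in myrAKT. The sum of 16 leukocyte genes was between 475 and 1505 CPM in MYCN and between 18882 and 23431 CPM in myrAKT. Their part in the kita difference was not tested.

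Of the 8 genes with a row, 6 had enough counts for the test across genes, and 5 of the 6 passed it, 3 higher and 2 lower in myrAKT. Among all genes tested 76.0% passed, 37.6% higher and 38.4% lower, and the groups did not overlap for 72.5%. Since the list was drawn up with this comparison known, nothing is read from that count. Within each MYCN library mitfa and pmela made up between 99.3% and 99.7% of the reads of the 8 genes. In the myrAKT libraries kita made up between 70.0% and 76.8% of them, and mitfa and pmela together between 16.8% and 18.9%. The summed level of the 8 genes was between 265 and 470 CPM in MYCN and between 22.6 and 30.0 CPM in myrAKT.

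Ratios of reads within a library need no scaling between libraries. There were 1.06, 0.740, 0.716 and 0.301 mitfa reads per pmela read in MYCN 1 to 4, and 0.769, 0.848, 0.954 and 1.04 in myrAKT 1 to 4, so this ratio overlapped between the groups while both genes lay far lower in myrAKT. MYCN 4 had the lowest ratio, since mitfa was low in it while pmela was close to its level in the other MYCN libraries. Set against dbh, there were between 0.0634 and 0.0691 pmela reads per dbh read in MYCN and between 0.00145 and 0.00323 in myrAKT. For mitfa the corresponding ranges were 0.0200 to 0.0670 and 0.00151 to 0.00248. Neither ratio to dbh overlapped between the groups, so mitfa and pmela were lower in myrAKT also relative to dbh. The sympathetic genes listed ranged from chgb at a log2 fold change of -4.80 to chga at 0.95, with dbh at -1.42. Ratios to sympathetic genes other than dbh were not computed, and the result may depend on the marker.

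Mitfa belongs to the MiT family of transcription factors, whose other zebrafish genes include mitfb, tfec, tfeb, tfe3a and tfe3b. These factors bind related DNA motifs. Tfeb and the tfe3 proteins switch on lysosome genes, mitfb and tfec are expressed in the retinal pigment epithelium, and tfec also acts in silvery iridophores. All 5 of the other family genes moved opposite to mitfa, in a comparison where 37.6% of all genes tested rose. Mitfb, the paralog of mitfa, was at 1.51, 1.07, 1.58 and 1.13 CPM in MYCN 1 to 4 and at 22.1, 22.5, 19.7 and 16.5 CPM in myrAKT 1 to 4. The groups did not overlap, and it rose by 3.93 ± 0.20 on the log2 scale (SE; edgeR adjusted p = 2.0e-07).

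Tfec had counts of 79, 38, 66 and 119 in MYCN 1 to 4 and of 2140, 2697, 1432 and 1020 in myrAKT 1 to 4, with no overlap in CPM. It rose by 4.50 ± 0.31 (SE; edgeR adjusted p = 1.2e-06) on the log2 scale. Tfeb rose from 1.13 ± 0.241 to 30.1 ± 4.48 CPM (log2 change 4.72 ± 0.21, edgeR adjusted p = 9.7e-08), tfe3b by 2.95 ± 0.17 and tfe3a by 1.63 ± 0.19 on the log2 scale. All 5 rose also when dbh and th set the scale. Under that scaling 8319 of 12126 genes rose, the median of all genes was 1.45 and tfe3a was at 3.15. The number of mitfa reads per mitfb read went from between 53.9 and 172 in MYCN to between 0.0823 and 0.152 in myrAKT. Leukocyte and kidney tubule markers were higher in the same libraries, and their part in the rise of these 5 genes was not tested.

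**Figure D2:**
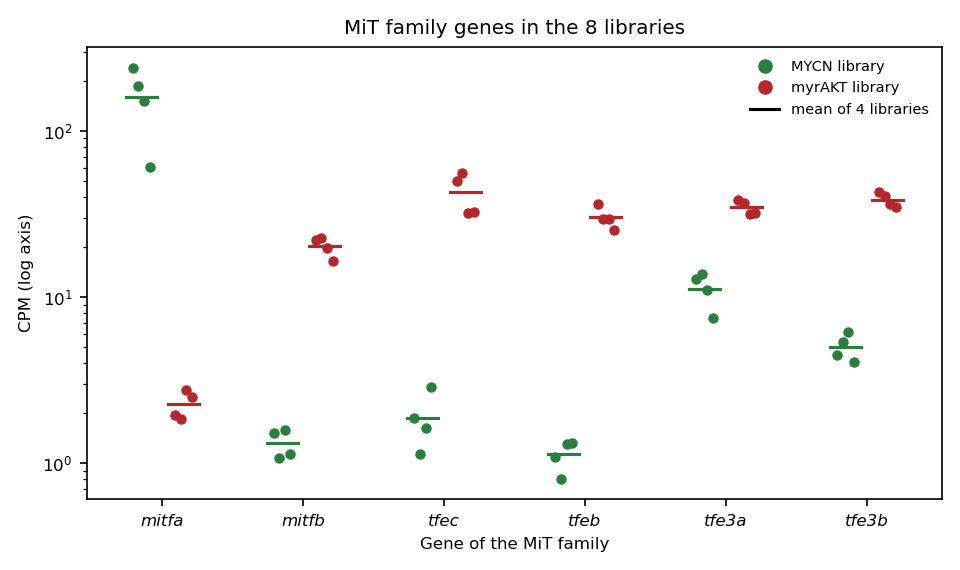
Level of the 6 MiT family genes in the 8 libraries, in TMM-scaled CPM on a log axis; points are single libraries and lines are means of 4 libraries, green for MYCN and red for myrAKT. Mitfa has a mean of 160 CPM in MYCN and 2.27 CPM in myrAKT, while mitfb, tfec, tfeb, tfe3a and tfe3b lie higher in every myrAKT library than in any MYCN library.

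Other genes of melanosome assembly, transport and melanin chemistry went in both directions. Of 52 such genes listed, 36 had a row and 32 were tested. Among all genes tested 37.6% rose and 38.4% fell, with a median log2 fold change of -0.04. Of the 32, 14 rose, mitfb among them, 9 fell and 9 did not pass, with a median of 0.27. Under the scaling on dbh and th, 26 rose and none fell (edgeR, and none at an unadjusted p under 0.05 either), under a median of 1.45 for all genes. Among the genes that rose were hps5, a subunit of a complex that delivers cargo to melanosomes, and tpcn2, an ion channel of melanosomes and lysosomes. Both, with mitfb, were named for the smallest adjusted p among the genes that rose, and ap3s2 for the smallest among those that fell. Hps5 went from 4.33 ± 1.26 to 87.2 ± 9.45 CPM (log2 change 4.33 ± 0.22, edgeR adjusted p = 2.0e-07). Tpcn2 went from 1.43 ± 0.493 to 30.6 ± 3.43 CPM (log2 change 4.41 ± 0.23, edgeR adjusted p = 2.4e-07). Ap3s2, a subunit of an adaptor that sorts melanosome proteins, fell from 73.3 ± 8.76 to 26.8 ± 3.93 CPM (log2 change -1.45 ± 0.15, edgeR adjusted p = 1.1e-05), and was at -0.01 with the scaling on dbh and th. Rab27a, named here after its values were seen, tethers melanosomes to their motor and also acts in granule release by blood cells. It rose from 1.56 ± 0.717 to 61.6 ± 3.92 CPM.

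Mfsd12a, a transporter of the melanosome and lysosome membrane named after its values were seen, rose by 1.85 on the log2 scale. Slc24a5, the cation exchanger altered in the golden fish, had counts of 1 to 3 in each of the 8 libraries. Gpr143, a receptor in the melanosome membrane, was at 1.30, 3.52, 5.32 and 1.85 CPM in MYCN 1 to 4 and at 0.282, 0.479, 0.382 and 1.87 CPM in myrAKT 1 to 4. It fell 4.29-fold (edgeR adjusted p = 0.012), with groups that overlapped through myrAKT 4; without that library its log2 fold change was -2.95. The call ended under the scaling on dbh and th (log2 fold change -0.77, edgeR adjusted p = 0.17). Trpm1b, related to a melanocyte cation channel that MITF controls in mammals, fell from 5.05 ± 1.20 to 1.53 ± 0.283 CPM (edgeR adjusted p = 1.5e-04), and it too was named after its values were seen. It was at -0.32 without passing under the scaling on dbh and th.

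Signals and transcription factors that act on melanophores or on their neural crest precursors moved in both directions. Of 53 listed, 47 had a row and 34 were tested, the other 13 having too few counts: 21 rose, 9 fell and 4 did not pass, with a median log2 fold change of 1.55. Over all genes tested 37.6% rose and 38.4% fell, with a median of -0.04. The 21 include tfec, tfeb, tfe3a and tfe3b, described above, and 9 of the listed genes are also in other lists. Under the scaling on dbh and th 3 fell. Sox10, which switches on mitfa in the neural crest, was at 0.188, 0.269, 0.591 and 0.168 CPM in MYCN 1 to 4 and at 1.90, 2.19, 3.89 and 2.38 CPM in myrAKT 1 to 4. It rose by 3.08 ± 0.42 (SE; edgeR adjusted p = 1.0e-04) on the log2 scale, opposite to mitfa. Sox10 is also a gene of Schwann cells and other glia. The sum of 17 glial genes went from between 34.3 and 54.4 CPM in MYCN to between 251 and 285 CPM in myrAKT. Most of that sum in myrAKT came from mbpb, zgc:92360 and cx32.2. Of 12 tested glial genes, sox10 among them, 10 rose, mpz fell and gfap did not pass. Plp1a, s100b and pou3f1 had too few counts to test. The part of glia in the sox10 difference was not tested.

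Foxd3 and crestin, neural crest genes named after their values were seen, rose by 3.16 and 2.32 on the log2 scale. Zeb2a and ets1, which act in the neural crest and in blood and vessel cells, rose by 3.25 ± 0.17 and 5.70 ± 0.30 (SE; edgeR adjusted p = 2.3e-07 and 2.7e-07). Both, with tfeb, were named for the smallest adjusted p among the listed genes that rose, and tfap2b for the smallest among those that fell. Tfap2b, a factor of sympathetic neurons, fell from 448 ± 67.1 to 43.9 ± 14.9 CPM (log2 change -3.35 ± 0.25, edgeR adjusted p = 1.8e-06). Tfap2a, a relative that acts on kita in melanophores and was named after its values were seen, fell by 2.95 from 641 ± 107 to 82.8 ± 31.8 CPM. Kita and tfap2a thus lay in opposite directions.

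Among the ligands and receptors, kitlga, which encodes the ligand of kita, was at 22.8, 19.4, 20.7 and 24.8 CPM in MYCN 1 to 4 and at 5.70, 7.10, 12.3 and 16.5 CPM in myrAKT 1 to 4. It fell by 1.08 ± 0.30 on the log2 scale (edgeR adjusted p = 0.0085), opposite to the higher kita level. With library totals it no longer passed (-0.68, edgeR adjusted p = 0.079), and with the scaling on dbh and th it was at 0.26. Kitb, the other kit paralog, had counts of 5 to 14 in each library and was not tested. Mc1r, the melanocortin receptor of pigment cells, had at most 4 counts in a library. Asip1, which encodes an antagonist of that receptor, had counts of 18, 16, 16 and 9 in MYCN 1 to 4 and 0 in all 4 myrAKT libraries. Its pooled level in MYCN, with the reads taken as counted, was 20.7-fold the floor of 3 counts over the myrAKT group. Asip1 was named after its values were seen.

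Genes known in mammals as targets of MITF outside pigment synthesis moved in both directions. Of 21 listed, 15 had a row and all 15 were tested: 9 rose, 2 fell and 4 did not pass, with a median log2 fold change of 0.63, against 37.6% that rose and 38.4% that fell over all genes. Leaving out single libraries, between 7 and 11 rose. Under the scaling on dbh and th none fell (edgeR, and none at an unadjusted p under 0.05). Bcl2a, ctsk and acp5b were named for the smallest adjusted p among the genes that rose, and met for the smaller among those that fell. Bcl2a, a homolog of the survival gene BCL2, rose from 0.944 ± 0.284 to 12.0 ± 0.831 CPM (log2 change 3.66 ± 0.23, edgeR adjusted p = 5.5e-07). Ctsk and acp5b, a protease and a phosphatase of osteoclasts in mammals, rose by 3.27 ± 0.20 and 4.59 ± 0.37 (SE; edgeR adjusted p = 6.0e-07 and 3.1e-06). Met, a receptor tyrosine kinase, fell from 21.2 ± 13.7 to 4.58 ± 1.69 CPM (log2 change -2.21 ± 0.49, edgeR adjusted p = 0.0023), and was at -0.80 without passing under the scaling on dbh and th.

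**Figure D3:**
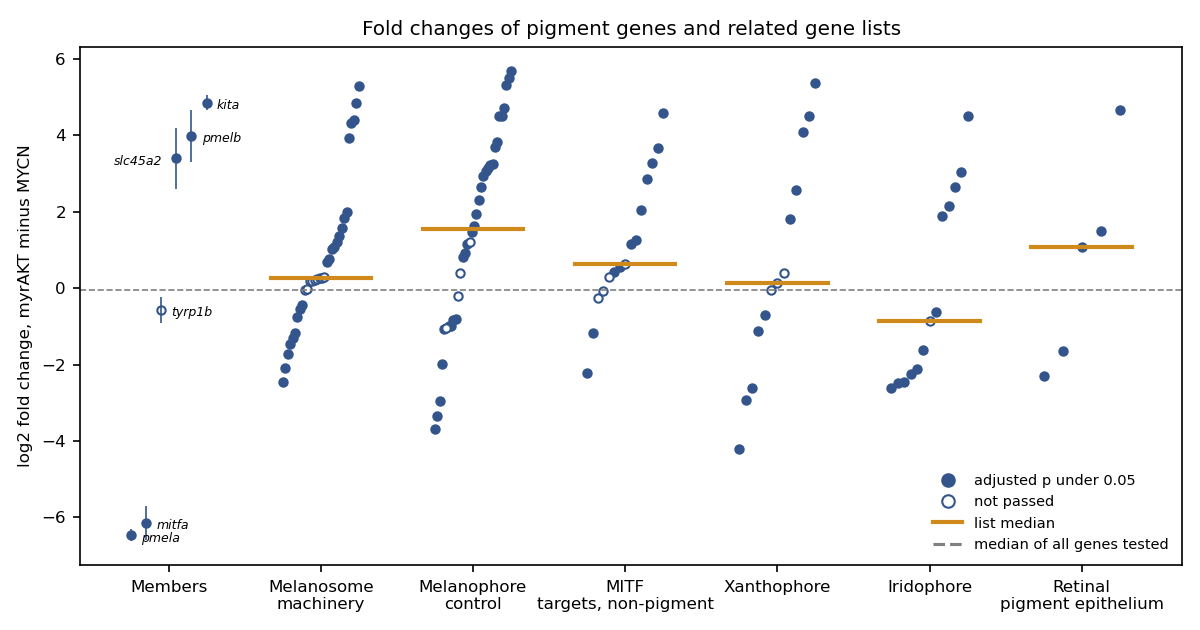
Log2 fold change, myrAKT minus MYCN, of the 6 tested pigment genes with their SE and of the tested genes of 6 related lists; each point is a gene, filled where its adjusted p was under 0.05, orange lines are list medians and the dashed line is the median of all genes tested, at -0.04. Mitfa and pmela lie at -6.14 and -6.47, below every gene of the other lists shown.

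The other pigment cells of zebrafish, yellow xanthophores and silvery iridophores, also come from the neural crest. Of 13 tested xanthophore genes 5 rose, 5 fell and 3 did not pass, where 37.6% of all genes tested rose and 38.4% fell. Gch2 acts in the synthesis of pteridine pigment and of the cofactor for tyrosine hydroxylase. It fell from 468 ± 272 to 25.2 ± 6.50 CPM (log2 change -4.22 ± 0.43, edgeR adjusted p = 1.4e-05). Csf1ra, a receptor of xanthophores and macrophages, rose from 34.4 ± 8.31 to 780 ± 108 CPM. Beside the same shares over all genes, 5 of 13 tested iridophore genes rose, 7 fell and 1 did not pass. The 2 with the highest mean CPM, the purine synthesis enzymes gmps and atic, fell by 0.61 and 1.61 on the log2 scale. Neither fall held with the scaling on dbh and th, at 0.93 and -0.08.

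Markers of the retinal pigment epithelium, a pigmented cell layer of the eye that also uses mitf and tyr genes, were mostly near 0. Of 13 with a row, 8 had too few counts to be tested, among them rpe65a and rpe65b of the visual cycle with at most 9 counts in a library. Of the 5 tested, 3 rose and 2 fell, against 37.6% and 38.4% of all genes tested. Stra6 and rlbp1b were named after their values were seen. Stra6 rose from 0.210 to 5.26 CPM (log2 change 4.67 ± 0.62, edgeR adjusted p = 8.0e-05), and was at 6.08 under the scaling on dbh and th. Rlbp1b fell by 2.30 on the log2 scale, and was at -0.84 without passing under that scaling. Rdh12 and rgrb, with the highest mean CPM of the list, fell by 1.63 and rose by 1.08 on the log2 scale. The fall of rdh12 did not hold under the scaling on dbh and th (-0.24, edgeR adjusted p = 0.49), and lrata had no read in MYCN and 2 in myrAKT in all. The call of rgrb ended without MYCN 1, MYCN 2, MYCN 3, myrAKT 1 or myrAKT 3 (edgeR adjusted p between 0.051 and 0.089), and with replicate number as a block (edgeR adjusted p = 0.050). The summed level of the list overlapped between the groups, at 21.9 to 35.6 CPM in MYCN and 11.5 to 28.7 CPM in myrAKT.

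Markers of several other cell types were higher in all myrAKT libraries. All 16 tested leukocyte genes and all 15 endothelial genes rose, and 16 of 17 kidney tubule genes rose. The shares over all genes tested were 37.6% that rose and 38.4% that fell. The kidney tubule sum was between 40.2 and 78.3 CPM in MYCN and between 1396 and 5234 CPM in myrAKT, and the endothelial sum between 15.1 and 33.5 CPM and between 494 and 765 CPM. Those with the highest mean CPM of their lists were lyz, the myeloid lysozyme, and cd74a, of antigen presentation, at log2 fold changes of 6.60 and 4.18; the kidney transport and adhesion genes atp1a1a.4 and cdh17, at 8.96 and 8.23; and stab1 and fli1a of vessels, at 5.60 and 6.32. Of the mast cell list 6 rose and 2 fell; srgn, a granule proteoglycan, rose by 5.09 and gata2a, which sympathetic cells also use, fell by 1.69 on the log2 scale, from 512 ± 88.5 CPM, and so made up most of the mast cell sum in MYCN. Of 12 tested glial genes 10 rose and 1 fell, with mbpb, of myelin, at 1.51 and zgc:92360 at 5.38. Of 12 tested epidermal genes 6 rose and 2 fell; agr2 rose by 4.67, while krt15 was at -0.64 without passing. Of 14 sympathetic genes 12 fell and 1 rose, with dbh at -1.42 and th at -1.33. Of these lists, the mast cell and glial lists each share 3 genes with another list and the leukocyte and sympathetic lists 2 each. Erbb3b, of Schwann cells, had no read in MYCN and 4 in myrAKT in all, and was near 0 in both groups. How far these cells contribute to pmelb, slc45a2, kita or the MiT family genes in myrAKT was not tested.

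**Figure D4:**
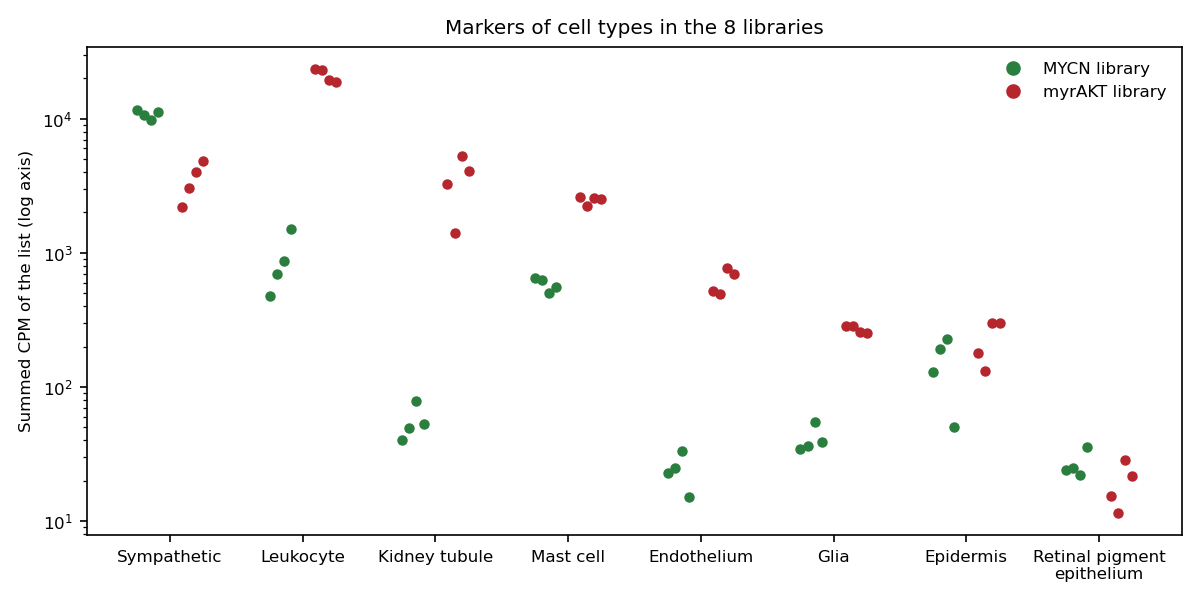
Summed level of 8 marker lists in each library, in TMM-scaled CPM on a log axis, green for MYCN and red for myrAKT. The leukocyte sum lies between 475 and 1505 CPM in MYCN and between 18882 and 23431 CPM in myrAKT, the sympathetic sum lies lower in every myrAKT library, and the epidermal and retinal pigment epithelium sums overlap.

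The genes whose pattern was most like that of mitfa were sought by the root mean square difference of centred log2 CPM over the 8 libraries. The search covered 7282 tested genes with a mean log2 CPM of at least 3, and genes with clone or locus names were left out. The closest were hhip, an inhibitor of hedgehog ligands, at 0.35, dpysl3, a cytoskeletal protein of growing axons, at 0.45, wnt9b, a secreted WNT ligand, at 0.46, the neuronal RNA-binding protein elavl3 at 0.48, and pmela at 0.54. Hhip was at 79.3 ± 16.7 CPM in MYCN and 1.15 ± 0.309 CPM in myrAKT, and wnt9b at 80.9 ± 27.4 and 1.99 ± 0.687 CPM (SD, n = 4). Dpysl3 was at 587 ± 139 CPM in MYCN and 13.3 ± 4.73 CPM in myrAKT. The other tested pigment genes were far from mitfa by this measure, at 2.74 for tyrp1b, 4.37 for slc45a2, 4.73 for pmelb and 5.42 for kita. With 8 libraries in 2 groups the measure mostly reflects the difference between the groups.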

How the data were processed

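RNA was sequenced in paired ends from 4 MYCN and 4 myrAKT samples; the labels name polyA RNA while their protocol describes removal of ribosomal RNA. The authors deposited raw read counts per gene symbol, 14781 rows in all, of which 732 had no count. The submitters' processing notes name, with no order or settings, the build GRCz10, HTSeq 0.6.1, TopHat2 2.1.1, Trim Galore 0.4.4, FastQC 0.11.5, SAMtools 1.5 and edgeR. No source used here gives the annotation, the strand setting or the treatment of shared reads, so paralogs and overlapping genes have uncertain counts. Over the 12 pairs of libraries within groups, a chi-square of the counts (summed count of 10 or more) was between 21.2 and 286 per degree of freedom, so no library was merged with another.

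Groups were compared with edgeR 4.0.16 in R 4.3.3 (filterByExpr, TMM factors, two-sided robust quasi-likelihood F test, Benjamini-Hochberg adjustment over 12126 genes, threshold 0.05). A positive log2 fold change means a higher level in myrAKT, and its standard error was computed from its F statistic. On counts simulated for these 12126 genes the test called 53 of 100 genes changed 2-fold, 93 of 100 changed 4-fold and 6 of 11857 unchanged genes. No other gene was changed there, whereas 76.0% of the genes tested passed between the groups. These rates therefore cannot be carried over to the comparison of the groups. The pigment genes and all gene lists were chosen with earlier results of these data known, so no list was tested as a set. Listed symbols without a row were looked up as older symbols in a RefSeq table of assembly GRCz12tu.

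Genes were named by a rule: the pigment genes, 11 related genes where measured (gpnmb and mlana were not analysed here), per pathway list the 3 smallest adjusted p in the majority direction and 1 in the other, per cell type list the 2 with the highest mean CPM, and the 5 most like mitfa. Others, tfe3a and tfe3b among them, were named after their values were seen. Alternatives were library totals, upper-quartile factors, scaling on dbh and th, DESeq2 1.42.0, no filter, a filter of CPM of at least 1 in 4 libraries, a replicate block, and each library left out.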

Additional observations from a re-analysis of the deposited data

Results flagged for a closer look

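Library values that stood apart from the other 3 of their group by Dixon's criterion were found for 8 of 102 groups examined over 52 named genes; chance flags about 1 in 20 groups. Among the pigment genes, slc45a2 was at 0.950 CPM in myrAKT 4, where the other 3 myrAKT libraries were between 0.258 and 0.333 CPM, and tyr was at 0.0235 CPM in myrAKT 1, a single read, where the others were between 0.0833 and 0.0950 CPM. The low mitfa level in MYCN 4 was not flagged. Gpr143 was at 1.87 CPM in myrAKT 4 and between 0.282 and 0.479 CPM in the other 3 myrAKT libraries. Ctsk was at 257 CPM in myrAKT 2 and between 166 and 172 CPM in the others. Rdh12 was at 28.4 CPM in MYCN 4 against 17.7 to 19.5 CPM, and dpysl3 was at 380 CPM in MYCN 4 against 644 to 671 CPM. Mbpb was at 36.8 CPM in MYCN 3 against 24.0 to 25.1 CPM. In the glial list, zgc:92360 was at 82.6 CPM in myrAKT 1 against 74.8 to 75.8 CPM.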

How the results depend on the processing

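Mitfa and pmela stayed lower and kita higher in myrAKT under all 15 alternatives. Pmelb and slc45a2 stayed higher under every alternative that fitted them. The filter of CPM of at least 1 in 4 libraries left out pmelb, slc45a2 and tyrp1b. Over left-out libraries mitfa was between -6.42 and -5.89, pmela between -6.55 and -6.42 and kita between 4.72 and 4.99. There pmelb was between 3.65 and 4.41, slc45a2 between 2.87 and 3.94 and tyrp1b between -0.87 and -0.39. Scaling on dbh and th, which moved the median of all genes from -0.04 to 1.45, gave -4.73 for mitfa, -5.02 for pmela, 6.36 for kita, 5.35 for pmelb, 4.74 for slc45a2 and 0.84 for tyrp1b. It put 8319 genes higher and 1026 lower, against 4565 and 4655. Melanosome genes were then 26 higher and 0 lower, MITF targets 0 lower, and control genes 3 lower. Xanthophore genes were 9 higher and 3 lower, iridophore genes 4 lower, sympathetic genes 2 higher and 6 lower, and retinal, mast cell, glial and epidermal genes 0 lower. For these counts of 0 edgeR also gave 0 at an unadjusted p under 0.05. Under it kitlga was at 0.26 and gmps at 0.93. Dbh and th, at -0.04 and 0.05, were held near 0 because they set this scale, also within the sympathetic counts above. Library totals moved the median to 0.34 and gave 5.26 for kita, -6.11 for pmela, and 1 mast cell, 1 epidermal and 0 glial genes lower (0 glial also at an unadjusted p under 0.05, as with the CPM filter below); of all calls 62.2% were then higher, against 49.5%. With CPM of at least 1 in 4 libraries 3 iridophore genes were higher, 1 epidermal and 0 glial genes lower; DESeq2 gave 0 glial genes lower, with 1 at an unadjusted p under 0.05. Over left-out libraries 1 to 3 retinal genes were higher, and 0 to 1 glial and 1 to 2 epidermal genes lower. The causes of these shifts were not tested.

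Of 41 other named genes, 30 kept their call under all 15 alternatives. Dbh and th are among those that did not, since the scaling set on them fixed their outcome. The replicate numbers showed no sign of pairing the groups: same-numbered libraries deviated with correlations between -0.176 and 0.120, and no library correlated best with its own number. With 4 libraries per group this cannot exclude a shared factor of small effect. With the replicate block 8816 genes passed, against 9220, and among the named genes only the call of rgrb ended. The counts of tyr, dct, slc24a5, mc1r and kitb were too low to test, and whether deeper sequencing would change this was not examined.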

Other observations

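Of 15 iridophore genes with a row, defbl1, apoda.1 and pnp4a were far higher in myrAKT 4 than in the rest of its group; they were picked after their values were seen. Defbl1 had counts of 12, 1, 0 and 134 in myrAKT 1 to 4 and at most 8 in a MYCN library, and apoda.1 had 45, 5, 1 and 203 and at most 13. Pnp4a, a purine enzyme that marks iridophores, was at 2.00, 1.04, 0.584 and 8.30 CPM in myrAKT 1 to 4 and between 3.82 and 7.24 CPM in MYCN. Without myrAKT 4 it was at a log2 fold change of -2.09 (edgeR adjusted p = 0.0018), against -0.86 with all libraries (edgeR adjusted p = 0.26). The summed level of the list was 350 CPM in myrAKT 4, within the group's 345 to 419 CPM. Most of that sum came from gmps, tspan36 and atic, so it says little about the genes with low levels. Of the other listed genes, ltk, alx4b, fhl2a, fhl2b and mpv17 were also highest of the group in myrAKT 4. Tspan36 was at 97.8 CPM there against 90.4 to 116 CPM, and tfec lay within the range of its group. Gmps, atic, gart and ppat were lowest in myrAKT 4. Whether this library held more iridophores was not tested. The library also held the highest pmelb, slc45a2, gpr143 and ednrba levels of its group. Without it the fitted log2 fold changes of pmelb and slc45a2 were 3.70 and 2.87, and leaving out other single libraries gave as little as 3.65 for pmelb.

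Mlpha, which links melanosomes to their motor, was at 8.04 CPM in MYCN 4 and between 0.895 and 2.03 CPM in the other 3 MYCN libraries, while mitfa was lowest in MYCN 4. Of the purine synthesis genes among the pigment cell lists, paics fell by 2.93, gart by 2.60, ppat by 2.49, atic by 1.61 and gmps by 0.61 on the log2 scale. Ltk, the receptor that specifies iridophores, fell from 8.03 ± 2.14 to 1.49 ± 0.568 CPM (edgeR adjusted p = 7.3e-05), while ednrba and alx4b, which act in the same cells, rose by 2.66 and 2.16. Under the scaling on dbh and th paics, gart, ppat and ltk were lower too, at -1.39, -1.09, -0.92 and -1.01, while atic was at -0.08 and gmps at 0.93.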
